A study of Mus musculus with 8 samples.

Results

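The genes described here are those whose 3′UTR holds 3 or more polyadenylation sites (PASs). A gene was taken when at least 3 of its PASs were listed and each of them was typed by the authors as lying in the 3′-most exon. In the comparison of AS with NT 1250 of 10452 genes met this rule, in that of RC4 with NT 1302 of 10081, and in that of RC8 with NT 1334 of 10441. Of the 10690 genes listed at least once, 1542 were members in 1 or more comparisons, 1075 in all 3, and 703 had the identical PASs in all 3. The cells were NIH3T3, an established mouse fibroblast line grown as a bulk culture. NT cells received no treatment, AS cells were kept in medium with 250 μM sodium arsenite for 1 h, and RC4 and RC8 cells had the same arsenite exposure followed by recovery without it for 4 h or 8 h. Each condition was 1 QuantSeq FWD library, a method that reads cDNA from the 3′ end of mRNA, and the same NT library served in all 3 comparisons. The PASs listed for a gene could still differ between comparisons. A PAS, and with it a member, could thus be listed through the treated library, and the part of this was not tested. Because there was 1 library per condition, no difference between conditions could be tested, and every interval given below covers counting error or the spread over genes, not the spread between cultures.

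A PAS is the place in a transcript where the nascent RNA is cut and a poly(A) tail is added. The cut site is specified by an upstream hexamer, most often AAUAAA or its variant AUUAAA in the RNA, which the CPSF complex binds, by UGUA elements bound by the CFI complex, and by downstream U- and GU-rich elements bound by CstF. When a 3′UTR holds several PASs, the choice among them sets the length of the 3′UTR and so the set of microRNA and protein binding sites that the mRNA carries, while the encoded protein stays the same. The 5′-most PAS, called first here, gives the shortest 3′UTR, and the last gives the longest.

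Most members had 3 PASs (827 of 1250 in AS, 847 of 1302 at RC4 and 904 of 1334 at RC8), 305, 322 and 306 had 4, and the highest numbers were 7 in AS and 9 in RC4 and RC8. The first and last PAS lay a median of 1811 nt apart in the AS comparison (interquartile range, 895 to 3059 nt), and no neighbouring PASs were closer than 100 nt. In 70%, 69.1% and 67.9% of members of AS, RC4 and RC8 at least 1 pair of neighbouring PASs was less than 300 nt apart. In the GENCODE annotation of mm9, 87.4% of first, 84.4% of middle and 59.4% of last PASs of the AS comparison lay in an annotated UTR, and 33.4% of the last PASs lay downstream of the annotated gene end. Of the first PASs in AS 3.68% lay in annotated coding sequence, where the encoded protein need not stay the same. All PASs lay inside 1 annotated exon of the gene in 748 of 1178 annotated members of AS (63.5%). A PAS of 37, 45 and 44 members was also listed for another gene.

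The libraries held 22441452 to 22996421 reads in listed genes, of which 11.2% to 12.8% fell on members. A member had a median of 1007.5 to 1227 reads in a library, against 619 to 783 for all genes, so that the shares of a member rested on more reads than those of a typical gene. As a check of the labels, 12 stress and metal response genes such as Hmox1, Hspa1b and Mt1 were looked up, and 10 were listed (Hspa1a and Atf3 were not). The 10 had a median log2 change of 1.11 in AS, 3.17 at RC4 and 1.05 at RC8. Single genes ranged from -0.14 to 2.36 in AS, -0.03 to 5.80 at RC4 and 0.06 to 2.12 at RC8. Together they went from 3065 to 4735, 19950 and 6419 rpm (reads scaled to the total gene reads of the library). All 7 fibroblast markers were listed. Of 6 markers of other cell types only the neuronal tubulin gene Tubb3 was listed, at 2.79 rpm in NT, 2.32 in AS, 11 at RC4 and 15.8 at RC8, and its part in the results was not tested.

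The sequences below are the last 30 nt before the cut site of PASs that the results turn on, read from the mm9 genome 5′ to 3′ on the strand of the gene, with AATAAA or ATTAAA in capitals. The genes were chosen after their values were seen. The first set is from Wipi2 and Dusp11, which moved from a far downstream PAS to an upstream one. In Wipi2 a PAS with AATAAA lost share to one without it in the 30 nt shown. In Dusp11 it lost share to one that also had it.
Wipi2 PAS 1 (chr5:143143112-143143141, plus strand): cttatgaatttagctttttattttctctca
Wipi2 PAS 2 (chr5:143143461-143143490, plus strand): cccaatttATTAAActctttccagattgga
Wipi2 PAS 3 (chr5:143145597-143145626, plus strand): agtggactccAATAAAcactaaaactgaaa
Dusp11 PAS 1 (chr6:85897506-85897535, minus strand): aatgaatttAATAAAatcaggtcaaaagaa
Dusp11 PAS 2 (chr6:85897280-85897309, minus strand): ctcatgcttgtaatgtgttgtgtaggtgca
Dusp11 PAS 3 (chr6:85894483-85894512, minus strand): tataaacatAATAAAaatacaaaagataaa
Dusp11 PAS 4 (chr6:85892262-85892291, minus strand): ctttatAATAAAttatcaaactttgccaaa
The second set is from Thbs2, a member whose first and last PAS both lack these hexamers in the 30 nt shown.
Thbs2 PAS 1 (chr17:14804119-14804148, minus strand): gtcattctcataaattaagcatgaaaaata
Thbs2 PAS 2 (chr17:14803463-14803492, minus strand): gttaatatttATTAAAtgatttggaatata
Thbs2 PAS 3 (chr17:14802580-14802609, minus strand): tgttcattgggttaaatttcaccactaaaa
The third set holds neighbours less than 300 nt apart that exchanged reads. In Plk4 and Mtmr3 the downstream PAS gained and in Rpl15 the upstream one, and in each of the 3 the gaining PAS had AATAAA in the 30 nt shown and its neighbour did not.
Plk4 PAS 2 (chr3:40620674-40620703, plus strand): gaatgtgtaaataatgtattataagcaata
Plk4 PAS 3 (chr3:40620776-40620805, plus strand): aaAATAAAcacagtggtaagttttccttaa
Mtmr3 PAS 2 (chr11:4381051-4381080, minus strand): tttgatcaatgaagcacttttttattaata
Mtmr3 PAS 3 (chr11:4380878-4380907, minus strand): aagtgAATAAAgttgagtgtccgcacggtg
Rpl15 PAS 1 (chr14:19101473-19101502, minus strand): catatccAATAAAcaatttaggacagtcat
Rpl15 PAS 2 (chr14:19101367-19101396, minus strand): tgcaataattgaaaactgcaggtgatggca

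Over the members the hexamers were unequally spread. AATAAA was present in the 40 nt upstream, on the strand of the gene, of 19.8% of first PASs (95% Wilson interval, 17.6% to 22.1%), 29.3% of middle PASs (27.3% to 31.4%) and 49.8% of last PASs (47.0% to 52.5%) in the AS comparison, against 42.7% of all PASs in 3′-most exons. ATTAAA was present in 10.6%, 14.8% and 16.3%, against 14.6% of all. In a window of the same length 200 nt further upstream AATAAA was present in 1.52% of first, 2.29% of middle and 3.84% of last PASs. TGTA between 40 and 100 nt upstream was present in 35.7% of first, 39.6% of middle and 48.4% of last PASs, against 40.3% of all. The order was the same in genes with 2 PASs, where AATAAA was present at 24.4% of first and 52.3% of last PASs. An A tract, at which the oligo(dT) used to make these libraries can prime, was present at 10.8% of first, 9.55% of middle and 8.48% of last PASs.

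In all 3 comparisons the first PAS held a larger and the last PAS a smaller share than in NT at the median. The median change of the first PAS share was 1.94 percentage points in AS (95% interval of the median over genes, 1.79 to 2.2), 3.33 points at RC4 (3 to 3.6) and 1.3 points at RC8 (0.8 to 1.8). The median change of the last PAS share was -2.1 points in AS (-2.3 to -1.8), -3.34 at RC4 (-3.7 to -3) and -1 at RC8 (-1.5 to -0.7). The last share was lower than in NT in 70.6% of members in AS, 73.4% in RC4 and 56.7% in RC8. Over all genes with 2 or more PASs in the 3′-most exon, members included, it was lower in 65.7%, 67.7% and 55.3%. The middle PASs, summed, hardly moved at the median, with 0.03 points in AS, 0.41 at RC4 and -0.14 at RC8. In genes with exactly 2 PASs in the 3′-most exon the median change of the last share was -1.4 points in AS, -2.3 at RC4 and -0.9 at RC8. The medians of members were thus further from 0 than those of pairs in AS and RC4, with intervals over genes that did not overlap, and close to them in RC8. Members and pairs were not matched for the distance between their PASs, and the part of distance in this difference was not tested.

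**Figure D1:**
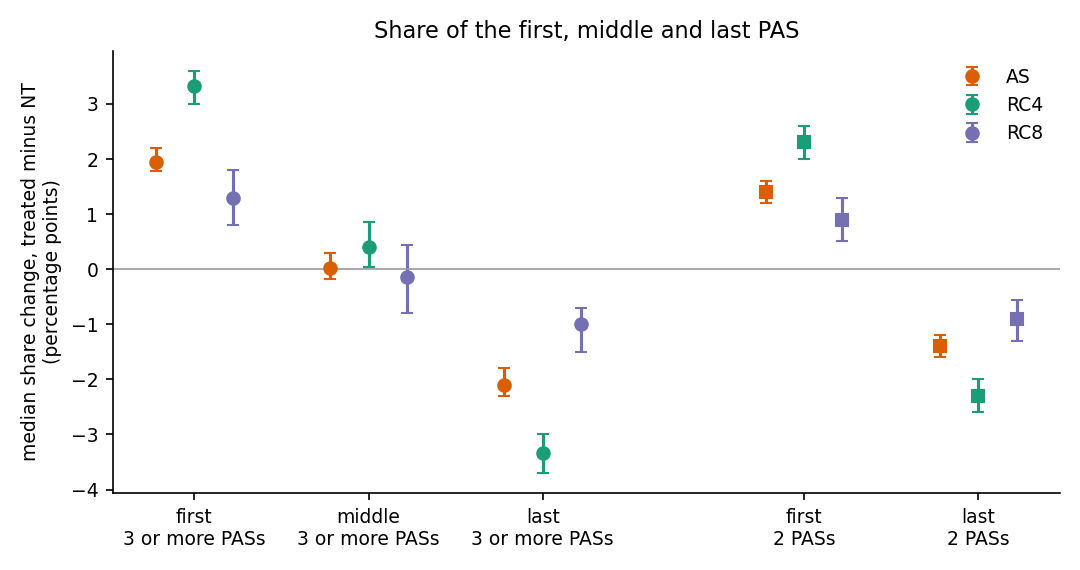
Median change of the share of a gene's reads at the first, middle and last PAS (y axis, percentage points, treated minus NT) in members with 3 or more PASs (circles) and in genes with 2 PASs (squares); bars are 95% order-statistic intervals of the median over genes. First shares lie above 0 and last shares below 0 in AS, RC4 and RC8, with RC4 furthest from 0 at 3.33 and -3.34 points, and middle shares lie near 0.

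A share was called changed when it differed from NT by 10 percentage points or more and the Newcombe 95% interval of the difference, from the reads of both libraries, excluded 0. Such calls compare 2 libraries. At least 1 of the first, middle and last shares changed in 214 of 1250 members in AS (17.1%), 438 of 1302 at RC4 (33.6%) and 424 of 1334 at RC8 (31.8%). Over all genes with 2 or more PASs in the 3′-most exon, members included, the background was 13.6%, 25.5% and 25.3%. With a size of 5 points the counts were 592, 869 and 895 members (background 34.6%, 50.2% and 51.3%), with one of 20 points 18, 80 and 67 (1.57%, 5.58% and 4.64%), and a G test on the reads per PAS, which compares the libraries alone, called 643, 967 and 1000 (38.9%, 57.9% and 58.6% of all genes with several PASs of any type). A member has 3 shares that can be called and a gene with 2 PASs has 2 that mirror each other.

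The last share fell in 104 members in AS (background 8.1%), 241 at RC4 (15.9%) and 133 at RC8 (11%), which is 8.32%, 18.5% and 9.97% of members. It rose in 16 in AS (2.98%), 40 at RC4 (5.26%) and 83 at RC8 (8.83%). The first share rose in 88 members in AS (7.65%), 182 at RC4 (14.3%) and 120 at RC8 (10.7%), and fell in 7 (2.74%), 32 (5.12%) and 82 (8.81%). First shares fell in 0.56% of members in AS, below the background. The first PAS of members held a median of only 19.9% in NT, against 39.5% in genes with 2 PASs. That leaves less room for a fall of 10 points, and its part was not tested. The middle shares together, for which only members count, rose in 47 members in AS (3.76%), 131 at RC4 (10.1%) and 111 at RC8 (8.32%), and fell in 44 (3.52%), 95 (7.3%) and 123 (9.22%). Calls of the last share therefore ran 104 to 16 and 241 to 40 toward a loss in AS and RC4, and 133 to 83 in RC8. In RC8 they ran 58 to 11 in the 428 members with all gaps of 300 nt or more, and 75 to 72 in the 906 with a closer pair.

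The middle PASs took part in a way that the medians hide. Of the 438 members called in RC4, 78 gained at the first and lost at the last PAS with no call in the middle, but 82 gained in the middle and lost at the last, 46 gained at the first and lost in the middle, and 21 lost in the middle and gained at the last. In AS the same 4 patterns counted 35, 26, 15 and 9 of 214 called members, and in RC8 42, 42, 32 and 47 of 424. The exchange from the middle to the last PAS was thus the most frequent of the 4 in RC8 and the least frequent in AS and RC4. The PAS with the most reads moved upstream in 94 members in AS (7.52%), 138 at RC4 (10.6%) and 104 at RC8 (7.80%). It moved downstream in 31 (2.48%), 52 (3.99%) and 84 (6.30%). It went from the last directly to the first PAS in 33, 38 and 27 members, and from the first to the last in 2, 5 and 13. These moves were not counted in genes with 2 PASs, so no background rate stands beside them.

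Where the PASs of a gene were counted one by one, the median change stepped down along their order in members with 3, 4 or 5 PASs in AS and RC4 and with 3 or 4 in RC8. In AS the 305 members with 4 PASs had median changes of 2, 0.8, -0.77 and -2.1 points from the first to the last, and in RC4 the 322 such members had 3.4, 1.62, -0.95 and -3.2. In the 84 members with 5 PASs in AS the values were 1.87, 1.49, -0.3, -0.96 and -2.02, and in the 88 in RC4 they were 3.69, 1.9, 0.92, -0.78 and -2.85. In RC8 the ends were closer together, with 1.9, 0.55, -0.59 and -0.9 in the 306 members with 4 PASs. The order was broken in the 79 RC8 members with 5 PASs, at 1.47, 0.4, 0.7, -0.08 and -1.06. It was also broken in the members with 6 PASs, at 2.33, 2.47, 0, -0.88, -2.75 and -2.1 in the 27 of AS, with 1.13 at the second PAS and 1.24 at the next in the 28 of RC4, and with 0.74 at the last PAS in the 34 of RC8. Neighbouring ranks had overlapping intervals in many of these steps, while the intervals of the first and the last PAS were apart for 3, 4 and 5 PASs in AS and RC4 and for 3 and 4 PASs in RC8.

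**Figure D2:**
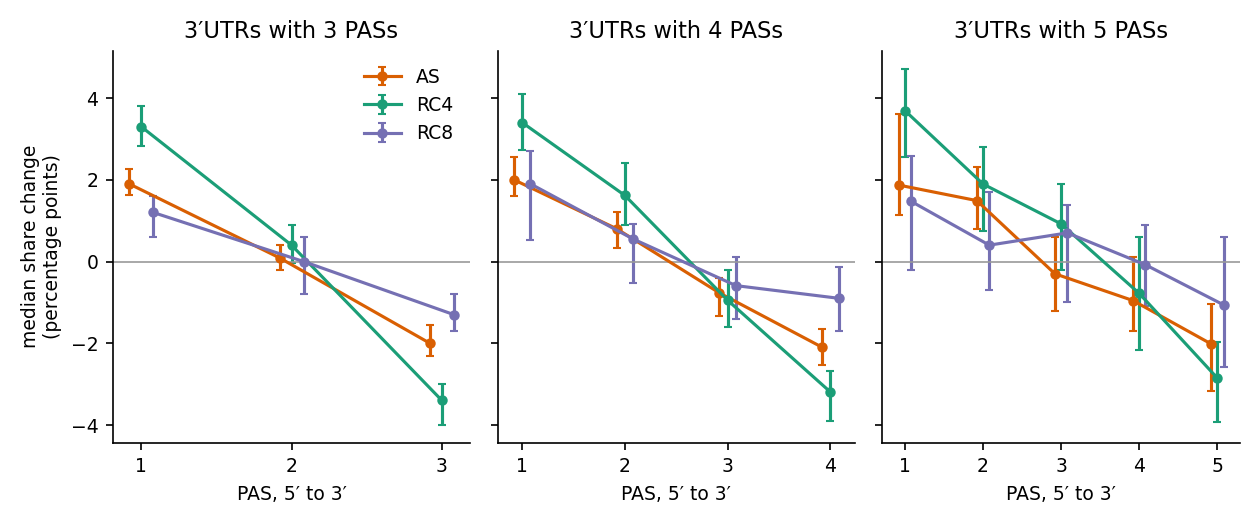
Median share change (y axis, percentage points, treated minus NT) of each PAS in order from 5′ to 3′ (x axis) in members with 3, 4 or 5 PASs; bars are 95% order-statistic intervals over genes. In AS and RC4 the medians step down from the first PAS to the last, from 3.4 to -3.2 points in RC4 members with 4 PASs, and RC8 is flatter.

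The size of the loss at the last PAS went with its distance from the first. In AS the median change of the last share was -0.29 points in the 116 members whose PASs spanned up to 500 nt, -1.52 at 1000 to 2000 nt, -3.7 at 3000 to 5000 nt and -5.11 in the 110 members spanning over 5000 nt. In RC4 it went from -0.51 to -2.92, -5.8 and -6.72 over the same classes. In RC8 it went from 0.25 to -0.82, -2 and -1.39. The last share fell in 0.86% of members spanning up to 500 nt and 32.7% of those over 5000 nt in AS, and in 7.69% and 37.3% in RC4. These classes also differed in depth, with a median of 1641.5 NT reads in the shortest and 1003.5 in the longest class of AS, and the part of depth was not tested.

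**Figure D3:**
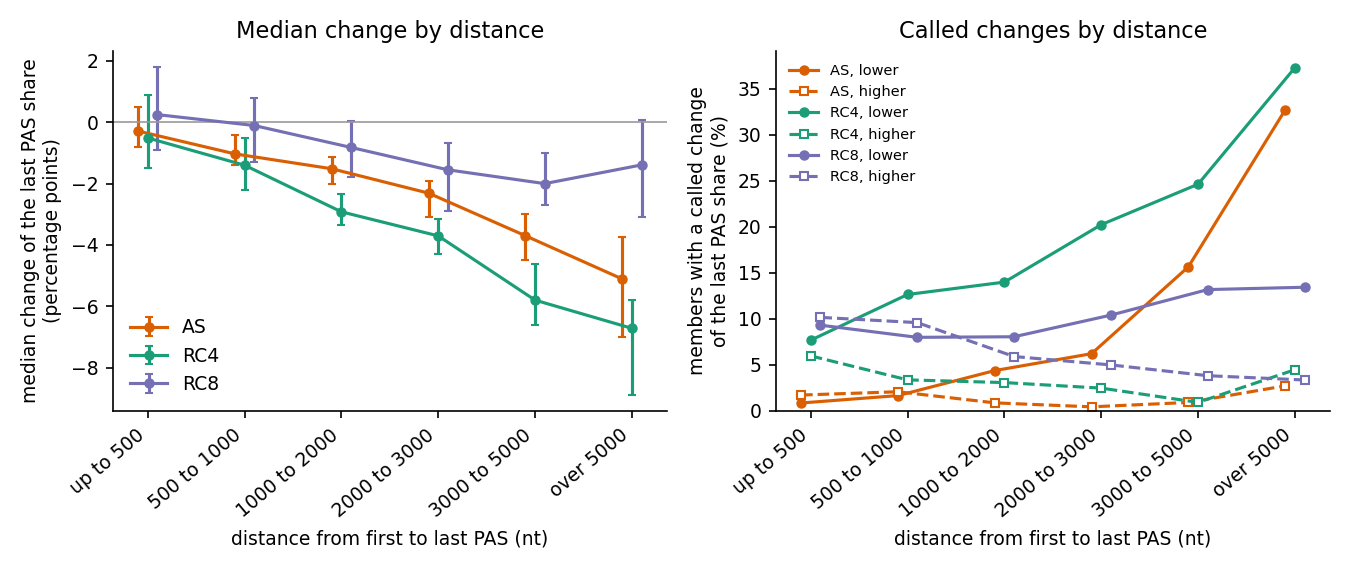
Left, median change of the last PAS share (percentage points, treated minus NT, with 95% order-statistic intervals) by the distance from the first to the last PAS; right, percent of members in each distance class whose last share was called lower (filled circles, solid lines) or higher (open squares, dashed lines). Losses grow with distance in AS and RC4, to 32.7% and 37.3% of members over 5000 nt, while in RC8 gains of the last share were called most often at short distance.

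The direction of a change also went with the distance between the sites that exchanged reads. For each called member the PAS that gained most and the PAS that lost most were taken. When they lay 3000 nt or more apart, the gaining PAS was the upstream one in 75 of 77 members in AS (97.4%; 95% Wilson interval, 91.0% to 99.3%), 98 of 106 in RC4 (92.5%; 85.8% to 96.1%) and 45 of 58 in RC8 (77.6%; 65.3% to 86.4%). At that distance genes with 2 PASs were close to members, with 52 of 53 in AS (98.1%), 61 of 66 in RC4 (92.4%) and 22 of 28 in RC8 (78.6%). When they lay less than 300 nt apart it was upstream in 28 of 52 in AS (53.8%; 40.5% to 66.7%), 39 of 89 in RC4 (43.8%; 34.0% to 54.2%) and 40 of 148 in RC8 (27.0%; 20.5% to 34.7%). In RC8, 108 of the 148 close exchanges thus ran downstream. Genes with 2 PASs gave 68 of 140, 70 of 191 and 99 of 301 upstream at less than 300 nt, so that they ran downstream more often than upstream in RC4 and RC8, while in AS the interval (40.4% to 56.8%) held an even split, as did those of members in AS and RC4. Reads of QuantSeq FWD start some distance upstream of the PAS and were assigned by MAAPER through a distribution of that distance, so that neighbours less than 300 nt apart share part of their reads' range, and the intervals do not cover the assignment.

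**Figure D4:**
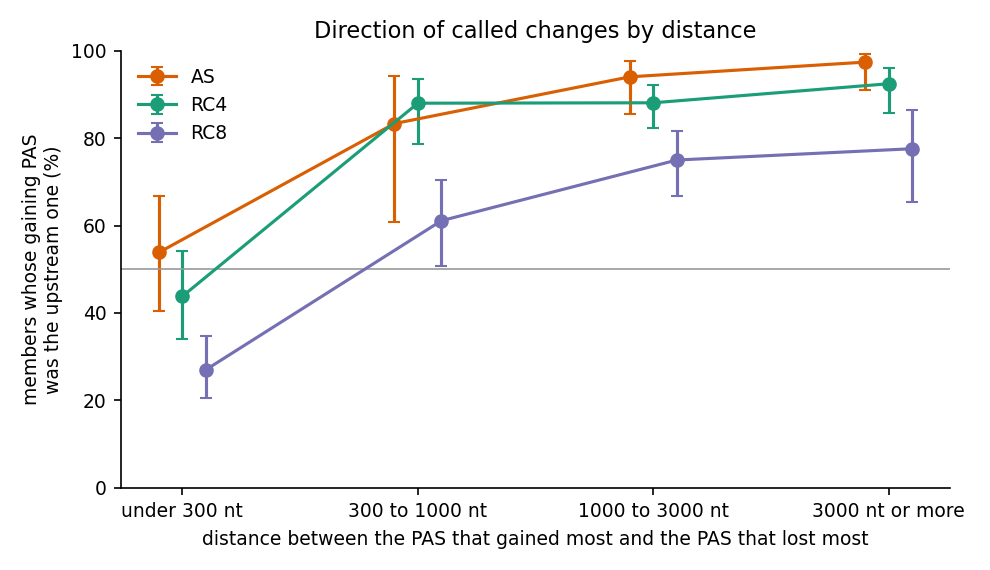
Percent of called members whose most gaining PAS lay upstream of the most losing PAS (y axis) by the distance between these PASs (x axis); points are AS, RC4 and RC8 and bars are 95% Wilson intervals. Beyond 1000 nt all 3 lie at 75% or more, and under 300 nt RC8 lies at 27.0%.

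Over both directions together, AATAAA was more frequent at the gaining PAS in close exchanges and at the losing PAS in distant ones. Under 300 nt it was present at 16 gaining and 8 losing PASs of 52 exchanges in AS, 36 and 11 of 89 at RC4 and 59 and 23 of 148 at RC8. Among the 108 close RC8 exchanges that ran downstream, AATAAA was present at 50 gaining PASs (46.3%) and 13 losing PASs (12.0%), and among the 40 that ran upstream at 9 (22.5%) and 10 (25%). In RC4, 16 of 39 gaining PASs of close upstream exchanges had AATAAA and 9 of the losing ones, and in downstream exchanges 20 and 2 of 50. In AS the counts were 3 and 5 of 28 upstream, and 13 and 3 of 24 downstream. In genes with 2 PASs the gaining PAS of close upstream exchanges had AATAAA less often than the losing one. The counts were 11 and 34 of 68 in AS, 13 and 28 of 70 at RC4 and 13 and 36 of 99 at RC8. Their close downstream exchanges gave 44 and 8 of 72, 72 and 7 of 121, and 115 and 25 of 202. AATAAA was present at 49.8% of last and 19.8% of first PASs in AS, and the part of position was not tested. In upstream exchanges of 3000 nt or more AATAAA was more frequent at the losing PAS, at 52 of 75 in AS, 66 of 98 in RC4 and 32 of 45 in RC8. The gaining PASs had it at 23, 22 and 10. Distant downstream exchanges had it at 2 gaining and 2 losing PASs of 2 in AS, 5 and 2 of 8 at RC4 and 9 and 4 of 13 at RC8. Distant exchanges of genes with 2 PASs, in either direction, had it at 15 gaining and 37 losing PASs of 53 in AS. The counts were 19 and 48 of 66 at RC4 and 11 and 20 of 28 at RC8. By members, the median change of the first share was higher where the first PAS had AATAAA. In RC4 it was 4.5 points where both the first and the last PAS had it, 4.71 where the first alone had it, 3.5 where the last alone had it and 2.7 where neither had. In the same order the values were 3.03, 2.21, 1.95 and 1.63 in AS, and 2.15, 1.98, 1.2 and 1 in RC8. Many of these intervals overlapped, such as 2.82 to 5.6 and 3.04 to 4.1 in RC4 for the first alone and the last alone. The median change of the last share in these 4 groups was -2, -1.8, -2.2 and -2 points for AS. For RC4 it was -3.5, -3, -4 and -2.88, and for RC8 -0.74, -1.25, -1.5 and -0.9.

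Members with an A tract at the first PAS had a median of the opposite sign in RC8. Their last share had a median change of 1.3 points (0.07 to 2.17, 149 members), against -1.39 (-1.7 to -0.9) in the 1185 members without one. In AS and RC4 both groups had negative medians, at -1.3 and -2.1 points in AS and -1.9 and -3.5 points in RC4. The part of priming inside the A tract was not tested.

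The level of each isoform was compared in rpm, and which side of an exchange moved more in RC4 depended on the scaling. The median log2 change of the last isoform was -0.33 in AS (-0.36 to -0.29), -0.49 at RC4 (-0.53 to -0.44) and -0.10 at RC8 (-0.14 to -0.07). That of the first isoform was -0.04 in AS, -0.02 at RC4 and 0.06 at RC8. The median of all genes was itself at -0.30 in RC4 and at -0.04 in AS and 0.01 in RC8. Relative to the median gene the RC4 values were 0.28 for the first, -0.19 for the last and 0.06 for the middle isoforms, which stood at -0.24 before that scaling, so the sign of the middle and first isoforms in RC4 depends on it, and that of the first isoform in AS likewise. Fewer cells of a type and less RNA per cell cannot be told apart in a bulk culture.

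The last isoform was lower by 2-fold or more in 174 members in AS, 351 at RC4 and 106 at RC8, which is 13.9%, 27.0% and 7.95% of members, against a background of 9.4%, 22.9% and 6.87%. It was higher by 2-fold or more in 9, 58 and 41 (background 0.666%, 4.22% and 3.67%). The first isoform was higher by 2-fold or more in 17, 159 and 115 members (background 1.04%, 9.18% and 8.13%) and lower in 44, 146 and 110 (4.1%, 12.9% and 8.2%). In the members whose last share fell, chosen by that share, the median log2 change of the last isoform was -1.002 in AS, -0.88 at RC4 and -0.63 at RC8, while the first isoform stood at -0.02, 0.37 and 0.47. The median of the first isoform of these members was thus near 0 in AS and above 0 in RC4 and RC8.

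Weighted over all PASs, the mean distance from the first PAS to the 3′ end, a measure of 3′UTR length, had a median log2 change of -0.07 in AS, -0.13 at RC4 and -0.05 at RC8, or -34.8, -63.1 and -20.6 nt. It was shorter than in NT in 978 of 1250 members in AS (78.2%), 1048 of 1302 at RC4 (80.5%) and 841 of 1334 at RC8 (63.0%). In genes with 2 PASs this distance falls when the last share falls. Their last share was lower than in NT in 63.3%, 64.6% and 54.5% of these genes.

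The 703 members with the same PASs in all comparisons could be set side by side over the 4 conditions, although the comparisons were fitted separately. Their NT shares differed between the 3 fits by a median of 0 and at most 6.2 points. The mean share of the last PAS was 34.7% in NT, 32.3% in AS, 31.0% at RC4 and 34.1% at RC8, and that of the first PAS 27.6%, 29.9%, 31.0% and 28.5%. Between AS and RC4 the last share of a member changed by a median of -1.1 points (-1.48 to -0.6), and between RC4 and RC8 by 2.38 points (1.8 to 2.8). The median length beyond the first PAS was 712 nt in NT, 665 in AS, 637 at RC4 and 692 at RC8. The long isoforms were thus least used at 4 h of recovery, and the mean change of the last share from NT was -3.76 points at RC4 and -0.63 at RC8.

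Wipi2, whose protein binds phosphatidylinositol 3-phosphate in autophagosome formation, shows the course over time. Of its 3 PASs on chromosome 5 the last, 2485 nt from the first, held 62.7% of reads in NT, 52.7% in AS, 35.9% at RC4 and 58.7% at RC8. The first PAS held 31.6%, 40.1%, 58.4% and 36.7%. The change at RC4 was 26.8 points for the first PAS (95% interval, 24.1 to 29.4), and at 8 h it was 5.1, so that RC4 was the library furthest from NT. The last isoform stayed at 53.6 rpm in NT and 52.9 in RC4 while the first went from 27.0 to 86.0.

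Lrrc58, a leucine-rich repeat protein gene, had the largest rise of a first share in AS. Its last PAS, 5249 nt beyond the first, held 30.1% of 2638 reads in NT, 5.74% of 2368 in AS, 26.1% at RC4 and 25% at RC8. The first PAS held 61.6% in NT and 87.8% in AS, and 66.2% and 66.5% in RC4 and RC8. The AS library alone stood apart, and there the last isoform fell from 35.2 to 6.06 rpm as the first went from 72.0 to 92.6. In Endod1, which encodes an endonuclease domain protein, the last share was 62.7% in NT, 34.6% in AS, 41.4% at RC4 and 51.1% at RC8, where PASs upstream of it were not all the same in each comparison. Scai, with a last PAS 8256 nt from the first, went from 70.0% to 43.6% at that PAS in AS.

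Dusp11, an RNA phosphatase gene of the dual-specificity family, held 25.8% of reads at its last PAS in NT, 15.5% in AS, 3.75% at RC4 and 5.2% at RC8, and 33.1%, 42.1%, 57.0% and 49.8% at its first. All treated libraries were below NT at the last PAS and above NT at the first. Thbs2, which encodes the matrix glycoprotein thrombospondin 2, also stayed low, with 33.6% in NT at the last PAS, then 22.4%, 12.8% and 11.1%, and with 50.4%, 60.3%, 76.5% and 77.3% at the first, so that RC8 was the lowest library in place of RC4. Its last isoform went from 56.5 to 16.8 rpm in RC4 while its first went from 84.8 to 100.2.

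**Figure D5:**
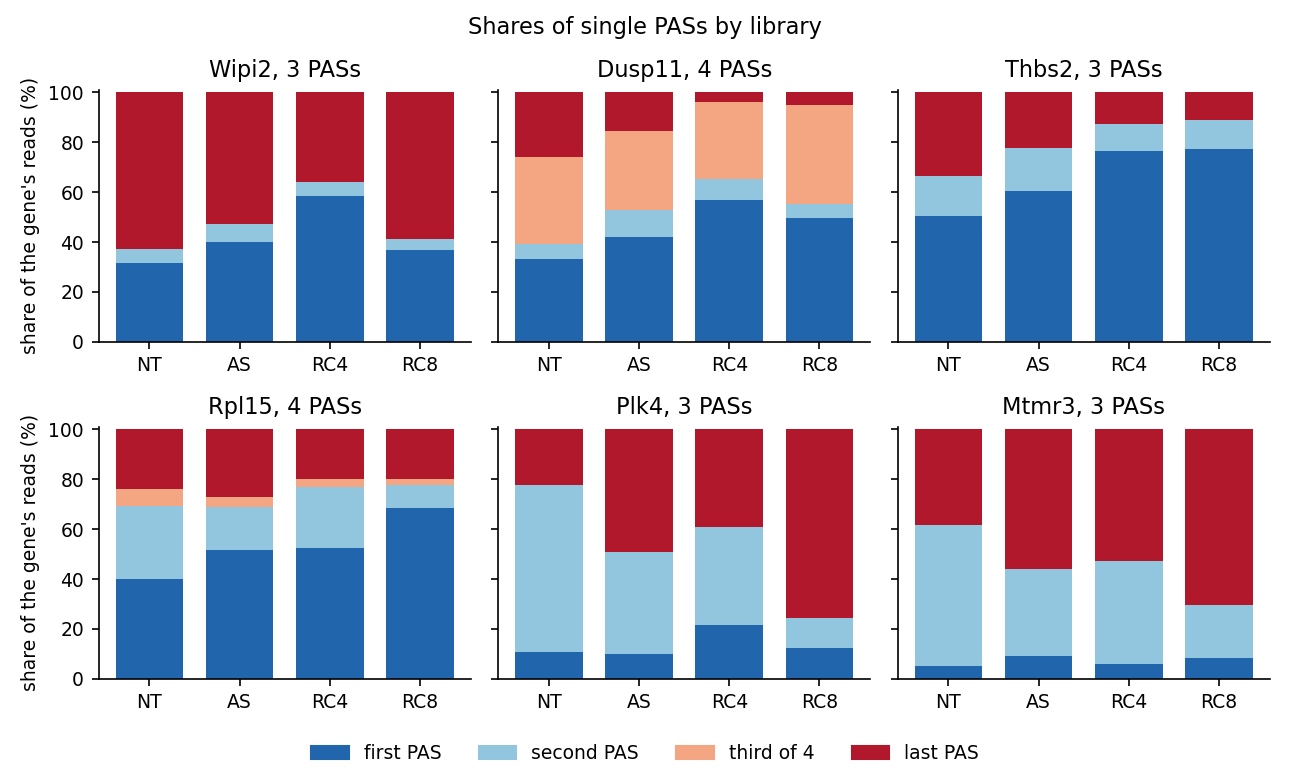
Stacked shares of the PASs of 6 members (y axis, percent of the gene's reads, first PAS at the bottom and last PAS at the top) in NT, AS, RC4 and RC8, 1 library each. The last share of Wipi2 drops to 35.9% in RC4 and is 58.7% in RC8, those of Dusp11 and Thbs2 stay low in RC8 at 5.2% and 11.1%, and those of Plk4 and Mtmr3 reach 75.7% and 70.3% in RC8.

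Other large moves toward the first PAS in RC4 were seen in Gosr1, a Golgi SNARE gene, from 12.3% to 39.7%, and in Adnp2, a zinc finger gene, from 49.2% to 75.8%. These shares rested on 223 and 204 NT reads. In RC8 they held 27.2% and 65.8%, between NT and RC4. The largest losses of a last share in RC4 were in Zdhhc21, a palmitoyltransferase gene, from 71.0% to 37.5%, Gabpa, which encodes the DNA-binding subunit of the GABP transcription factor, from 62.1% to 29.3%, and Rnf150, a RING finger gene, from 79.1% to 47.0%. In RC8 these 3 held 58.7%, 45.4% and 60.3%, between their RC4 and NT values. The upstream PASs listed for Rnf150 were not the same in RC4 and RC8, and for Gabpa the listed last PAS itself was another one, so that its RC4 and RC8 values are of different sites. The first PAS of Gabpa held 4.27% in NT and 12.9% at RC4, and that of Rnf150 2.87% and 10.5%. Neither of these PASs was listed in AS. In RC8 the first share rose most in Rpl15, Thbs2 and Ncoa3. Ncoa3, which encodes a nuclear receptor coactivator, went from 36.8% to 61.4%, after 49.0% in AS and 50.4% in RC4. The last share in Reep3 went from 75% to 49.5% in RC8.

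Rpl15, a ribosomal protein gene, exchanged reads between its first PAS and the next, 106 nt downstream. The first held 40.2% in NT, 51.8% in AS, 52.6% at RC4 and 68.4% at RC8, and the next 29.2%, 17.0%, 24.3% and 9.43%. Its last PAS, at 1136 nt, held 24.1%, 27.0%, 20.1% and 20.1%. The 3 treated libraries were above NT at the first PAS and below it at the second. Ribosomal protein genes have processed copies in the genome, and reads shared with them could not be told apart.

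The opposite movement, toward the last PAS, was seen in AS and RC8 in members with closely spaced sites. In Plk4, the kinase gene of centriole duplication, the last PAS lies 102 nt beyond the middle one, and it held 22.4% of reads in NT in the AS and RC4 fits, 49.3% in AS, 39.1% at RC4 and 75.7% at RC8. Mtmr3, a myotubularin phosphatase gene, held 38.2%, 55.9%, 52.7% and 70.3% at a last PAS 173 nt beyond the middle one. In Mfap1b, where the last PAS lies 225 nt beyond the middle one, the last share rose in AS, from 28.3% to 46.8%, and was at 35.8% at RC4 and 29.3% at RC8. In Plk4 and Mtmr3 all treated libraries were above NT, with RC8 highest, where the NT share was fitted as 20.1% in Plk4 and 37.8% in Mtmr3.

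In RC4 the last share rose most in Gfod2, an oxidoreductase domain gene, whose last PAS lies 2556 nt from the first. It held 47.5% of 262 reads in NT, 51.0% of 308 in AS, 78.9% of 225 at RC4 and 56.8% of 340 at RC8. Zfp442, a zinc finger gene, held 36.3% in NT and 67.4% in RC4 at its last PAS, and all its PASs lay downstream of the annotated gene end. Mex3d, an RNA-binding protein gene, held 40.6% and 67.6% at a last PAS 160 nt beyond the middle one. These 3 stood against the direction of most members, since RC4 had 241 losses of the last share and 40 gains.

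Large losses of the first PAS were seen in members whose second PAS lay close by. In AS the first share fell from 48.2% to 28.2% in Prss23, from 41.4% to 22.9% in Polg, the gene of the catalytic subunit of mitochondrial DNA polymerase, and from 22.8% to 8.52% in Cisd2, with the second PAS 133, 190 and 172 nt away. In RC4 it fell from 45.0% to 16.6% in Cdkn2c, a CDK inhibitor gene, from 27.1% to 2.61% in Klhl7 and from 38.8% to 16.9% in Smc3, a cohesin subunit gene, with the second PAS 134, 130 and 121 nt away. In RC8 it fell from 31.7% to 5.45% in N4bp1, from 56.2% to 30.4% in Usp15, a deubiquitinase gene, and from 27.8% to 2.24% in Tmem39a. In RC4 the first share of Usp15 had instead risen, from 56.2% to 68.5%. In Usp15 and Tmem39a the second PAS, 149 and 112 nt away, went from 34.3% to 61.9% and from 65.3% to 87.8%, and that of Tmem39a is annotated as coding sequence. In N4bp1 the reads instead appeared at the last PAS, 3287 nt from the first, which went from 42.6% to 65.7%.

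Ddit3, which encodes the stress-induced transcription factor CHOP, had the largest rise of a middle share in RC8. Its 3 PASs lie within 294 nt. The middle PAS held 39.7% in NT and 53.7% in AS, 39.2% and 45.3% in the RC4 fit, and 40.1% and 74.3% in the RC8 fit, while the first held 25.5% in NT, 21.2%, 23.7% and 6.68%. The level of the gene was 40.6 rpm in NT, 128 in AS, 104 at RC4 and 49.4 at RC8, so the library with the largest share change was not one with a high level. Nucb1, which encodes a calcium-binding Golgi protein, and Crot, a peroxisomal carnitine acyltransferase gene, followed. The last share of Nucb1 went from 47.8% to 22.9% in RC4 and from 47.7% to 14.5% in RC8, with the middle PAS at 70.8% and 79.6%. In Crot, a member in RC8 alone, it went from 70.9% to 41.8%. Etv1 and Cmtm4 gained in the middle and lost at a distant last PAS. In Etv1, an ETS transcription factor gene, the last PAS 4157 nt from the first held 34.5%, 26.7%, 11.9% and 20% over the 4 libraries, and in Cmtm4 the last PAS at 6707 nt went from 83.1% to 59.3% in AS. The middle shares of Lrrk2 in AS and of Lsm12 in RC4 fell, from 49.9% to 26.7% for the middle PAS of Lrrk2 and from 50.5% to 18.3% for the third of 4 PASs of Lsm12.

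No first, middle or last share was called in the members with the most PASs of each comparison (7 in AS, 9 in RC4 and RC8). In AS 7 members had 7 PASs, among them Nav1 and Zfp148. In Nav1, a neuron navigator gene, the most distal pair of PASs went from 11.9% to 5.25% and from 9.56% to 5.25% in AS, and from 11.9% to 3.81% and from 9.56% to 4.16% in RC8. Spred1, an inhibitor of Ras signalling, had 9 PASs in RC4, where the PAS 1729 nt from the first went from 23.4% to 17.5%. Zfp148 had 9 in RC8, where the first and second PAS went from 12.6% to 8.91% and from 20.7% to 12.2%.

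By gene list, matrix and adhesion members stood lowest at the last PAS in RC4. Of 12 such members the last share fell in 5, Col1a2, Col4a5, Itga6, Lamc1 and Thbs2, and rose in 0 (background 15.9% lower), with a median change of -8.05 points against -3.34 over all members. Col1a2, a chain of type I collagen, went from 29.8% of 17191 reads to 13.7% of 9766, and was at 28.6% in AS and 28.1% in RC8. Col4a5, a chain of type IV collagen, went from 78.8% to 48.3% in RC4 and 60.1% in RC8, and Lamc1, the laminin gamma 1 gene, from 79.8% to 57.1% in RC4. In AS the last share fell in 1 of 10 (Thbs2; background 8.1%; median -2.25 points against -2.1) and in RC8 in 2 of 11 (Col4a5 and Thbs2; background 11%; -2.2 against -1). The 7 fibroblast markers, of which Col1a2 is one, had median log2 gene level changes of -0.06 in AS, -0.60 at RC4 and -0.86 at RC8.

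Among trafficking members the last share fell in 4 of 33 in AS, 11 of 38 at RC4 and 8 of 36 at RC8, against a background of 8.1%, 15.9% and 11%. The medians were -2.6, -3.67 and -3.89 points, against -2.1, -3.34 and -1 over all members. Rab7, the GTPase of late endosomes, went from 26.8% to 13.1% in RC4 and 13.4% in RC8, while its gene level went from 187 to 451 and 378 rpm. Its last isoform was at 50.1 rpm in NT and 59.1 in RC4, and its first went from 46.8 to 188. Arl4a and Arl5a, small GTPases of the Arf-like family, had last shares of 50.2% (49.8% in the RC4 fit) and 54.5% in NT, 30.8% and 43.9% in AS, 38.7% and 36.8% at RC4 and 39.2% and 36.7% at RC8. In Stxbp5, the tomosyn gene, the last share was 39.5% in NT and 24.8%, 19.1% and 28.0% after treatment, and in Rab23 22.9% and 13.1%, 9.4% and 13.2%. The last share of Rab23 was called in RC4 alone, although at least 1 of its shares was called in each of the 3 comparisons. Some names on this list, such as Arl6ip6, which fell in RC4, and Arfip1 and Arl14ep, which rose in RC4 and RC8, are partners or neighbours in name of the GTPases. Of ubiquitin members, 6 of 34 fell in AS, 9 of 35 in RC4, among them Ube2n from 41.2% to 17.5% and Usp24 from 53.6% to 35.6%, and 5 of 34 in RC8 (background 8.1%, 15.9% and 11%), with medians of -3.2, -5.26 and -1.7 points. Fbxw11, an F-box protein gene, changed at its middle PAS, which held 41.8% in NT, 58.9% in AS, 55.2% at RC4 and 55.6% at RC8.

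RNA-binding members had a median of the same sign as all members in AS and RC4 and of the opposite sign in RC8, at -1.5, -1.6 and 1.51 points against -2.1, -3.34 and -1. In AS the last share fell in 1 of 23 (Rbm33) and in RC4 in 1 of 21, while it rose in 2 (Hnrnpul2 and Rbm7; background 5.26% higher). In RC8, 10 of 22 had a called change (background 25.3%, and 31.8% of members), the last share fell in 0 (11%) and it rose in 4 (8.83%), Hnrnpul2, Rbm7, Rbms3 and Srsf2. In Srsf2, a splicing factor gene, the last PAS held 58.6% of 13574 reads in NT, 61.1% in AS, 65.0% at RC4 and 70.2% at RC8. Hnrnpul2 held 51.9% (52.7% in the other fits), 50.8%, 64.2% and 70.7%, and Rbm7, a subunit of the nuclear exosome targeting complex, 48.9% (49.1%), 57.4%, 60.8% and 62.6%. In Rbm33 the last PAS, 3262 nt from the first, held 22.5%, 11.3%, 8.18% and 16.6%, below NT in each treated library. Of the cleavage and polyadenylation factors 2 of 20 were members. Cpsf6, a subunit of the UGUA-binding CFI complex, lost at its last PAS, 4638 nt from the first, from 34.8% to 22.6% in AS and from 25.3% to 12.0% at RC4 and was at 28.6% at RC8 against 25.3% in NT. The NT shares of Cpsf6 differed between the fits, in which 6, 8 and 6 of its PASs were listed.

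Of transcription factor members the last share fell in 4 of 34 in AS, 8 of 38 at RC4 and 1 of 34 at RC8, and rose in 2, 2 and 4, against a background of 8.1%, 15.9% and 11% lower and 2.98%, 5.26% and 8.83% higher. The medians were -3.09, -3.77 and -0.05 points. Klf7 and Sox9 were among those that rose in RC8. Of kinase and phosphatase members it fell in 1 of 24, 5 of 29 and 2 of 26, and rose in 0, 1 and 4, with medians of -1.01, -3.43 and -2.02 points. Of solute carriers it fell in 2 of 17, 2 of 16 and 4 of 19, with medians of -2.8, -6.08 and 0.3 points, including in RC8 Slc7a11, the cystine transporter gene, and Slc7a6os, which is named for its neighbour and is no carrier. In Slc37a3 the last share was 28.0% in NT and 16.7%, 17.9% and 17.4% after treatment. Of translation factor members, 5 to 6 in number, it fell in 0 in AS, in Eif4b in RC4 and in Eif1ax in RC8.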

How the data were processed

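QuantSeq FWD libraries of NT, AS, RC4 and RC8 NIH3T3 cells were analysed, 1 per condition. The QuantSeq REV libraries of the series were not analysed here. According to the study's methods and the labels, the authors trimmed reads with bbmap, aligned them to mm9 with STAR 2.5.2a, and assigned them to PolyA_DB PASs with MAAPER, which learns the distance between a read and its PAS from genes with a single PAS. The authors deposited, for each comparison with NT, read counts per gene in 2 columns per library and the fraction of a gene's reads at each PAS; no gene had fewer than 50 reads. What the 2 count columns are is not given in the sources used here; they were added, since their spread was that of counting. Deposited columns of the authors' own comparisons (likelihood-ratio and Fisher p-values, length and expression difference scores) were not used.

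Genes with 3 or more PASs, all typed as 3′-most exon, were members. Reads of a PAS were its fraction times the gene's reads. Levels were reads scaled to the total gene reads of the library (rpm), with 0.5 reads added for log2 changes. A share was called at a change of 10 percentage points with a Newcombe 95% interval excluding 0. Shares and exchanges were given Wilson intervals, and medians order-statistic intervals. Newcombe intervals cover the counting error of reads only, which carry no molecular identifiers, and the others the spread over genes or PASs. A PAS had an A tract if a run of 8 A lay in the window reaching 15 nt before and 20 nt past it, or if the 20 nt past it held a run of 6 A or any 10 nt with at least 7 A. Genes were named when they were among the 3 largest rises or falls of a class and comparison with 200 reads or more, had the most PASs, or were list genes called in each comparison. Col1a2, Col4a5, Itga6, Lamc1, Rab7, Ube2n, Usp24, Srsf2, Hnrnpul2, Rbm7, Cpsf6 and single names given with list counts were added after their values were seen. The members and gene lists were chosen with earlier results of these data known. Calling was tested on simulated reads drawn with counting error only, which does not cover the assignment of reads between neighbouring PASs. Python 3.11.15, pandas 2.3.3, numpy 2.4.6, SciPy 1.17.1 and matplotlib 3.10.9 were used. Some genes that the rule names are not reported here.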

Additional observations from a re-analysis of the deposited data

Results flagged for a closer look

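In 7 of the 703 members with the same PASs in all comparisons a share was called in opposite directions in 2 conditions, which is why they are given here; with 1 library per condition the difference was not tested. Each change was taken from the NT share of its own fit, and these NT shares can differ for the same library. The first share of Osbpl3, an oxysterol-binding protein gene, changed by 11.1 percentage points in AS and -18.9 in RC8. Averaged over the fits its NT share was 57.1%, against 66.1% in AS and 39.2% in RC8, so the AS rise was smaller against that value. That of Psmd7, a proteasome subunit gene, changed by 11 points in RC4 and -10.4 in RC8, and that of Twistnb by 11.6 in RC4 and -11.3 in RC8. The middle share of Ing3 changed by -11.4 points in RC4 and 10.1 in RC8. The last share of Dhx36, an RNA helicase gene, changed by -11.2 points in AS, -13.4 in RC4 and 11.5 in RC8. That of Klf7, a transcription factor gene, changed by -11.6 points in RC4 and 10.7 in RC8, and that of Ldlrad4 by -12.3 in AS and 10.8 in RC8.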

How the results depend on the processing

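All 42 medians of the first and last share changes recomputed under other settings kept their direction; level medians did not all do so. Values are given for AS, RC4 and RC8 in that order. In members with all gaps of 300 nt or more the first median was 2.6, 4.71 and 2.4 points, the last -2.8, -5.12 and -1.99, calls 77, 163 and 126, the log2 length change -0.10, -0.17 and -0.069, the last level -0.45 in AS and -0.64 in RC4, and the first level 0.10 in RC4 (-0.02 over all members, a change of sign) and 0.13 in RC8. With PASs of 10% or more only, the first median was 2.46 in AS and 4.21 in RC4, and the last -2.50 and -3.98. With the same PASs in all comparisons the first median was 1.7 in AS and 0.7 in RC8, and calls were 112, 222 and 214. A size of 5 points called 592, 869 and 895 members, one of 20 points 18, 80 and 67, and a G test on the reads 643, 967 and 1000, against 214, 438 and 424 at 10 points. With the median gene set to no change the first level was 0.000841 in AS and 0.28 in RC4, the last -0.19, the middle 0.063 and the gene 0.024 in RC4; the AS first and the RC4 first, middle and gene levels thereby changed sign, from -0.04, -0.02, -0.24 and -0.28. No paired analysis was possible because each condition had 1 library, and for the same reason no library could be left out.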
